A study of Rattus norvegicus with 32 samples.

Results

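Gastrocnemius, a calf muscle built mainly of fast fibres, was compared between rats labelled UCP1 knockout and control rats, both kept at room temperature. This contrast took 16 of the 32 libraries of the series, 9 of knockout and 7 of control muscle, and covered all genes that passed a filter on low counts. All rats were male, 20 weeks old and chow-fed. The labels name the controls as wild-type as well as control, and give neither strain nor allele. The other 16 libraries, 7 control and 9 knockout, came from muscle of rats exposed to 4 °C for 2 weeks, and are used below only to set levels beside those at room temperature. The labels do not say whether the animals sampled at the 2 temperatures were the same. Each library began with 500 ng of total RNA and was read from the 3′ end of transcripts, so 1 fragment stands for 1 transcript whatever its length. Knockout libraries carry the number of their column (KO8, KO10 and so on), because that number could not be tied to a single sample without doubt.

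UCP1 is a proton channel of the inner mitochondrial membrane of brown fat, where it lets protons return without making ATP, so that fuel oxidation gives heat. Muscle fibres normally make little or none of it. Muscle makes heat by shivering and by calcium cycling at the sarcoplasmic reticulum, where SERCA pumps, the ryanodine receptor and the peptides sarcolipin and phospholamban act. The comparison asks what muscle looks like without UCP1 in the body in rats not given the 2 weeks at 4 °C. Levels of Ucp1, of the myosins Myh2 and Myh4 and of Atp2a1 were not analysed here, so the genotype was not checked by its target gene. Muscle identity was plain: Myh1, a fast myosin heavy chain, stood at 30055 ± 7506 CPM (counts scaled to the library total, SD, n = 7) in control libraries, and Neb, the thin-filament protein nebulin, at 5073 ± 979.

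The libraries held 1.14e+07 to 1.81e+07 counts in control muscle and 8.02e+06 to 1.64e+07 in knockout muscle. KO8 and KO10 stood apart from the other 7 knockout libraries. On the first principal component (27.2% of the variance) these and controls 2 and 3 had the highest scores. Control 2 scored 47.4, but control 3 (25.4) was not far from control 6 (16.2). The choice of these 4 libraries rests on these same data. A set of 50 genes was chosen after the data were seen for being low in KO10: a mean of at least 20 CPM in the other knockout libraries and a level in KO10 more than 4 times below their median. Their mean log2(CPM + 1) was 4.73 ± 0.65 (SD, n = 7) in controls and between 5.84 and 6.41 in the 7 other knockout libraries. It was 4.24 in KO8 and 3.67 in KO10, the last by construction. The rule also favours genes that are high in most other knockout libraries, so the level of these 7 above the controls is partly built in. After cold the mean was 6.14 ± 0.14 in control (n = 7) and 6.16 ± 0.20 in knockout muscle (n = 9). Of the 50 genes, 19 are among those called higher below, where 2.35% of all genes were called higher. The choice of the 50 genes from these knockout libraries builds in part of this overlap. The part of this difference between libraries in the genotype result was not tested. Counts of called genes, over all genes and in most lists, are given also without these 4 libraries.

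edgeR's quasi-likelihood test, fitted on all 32 libraries with Benjamini-Hochberg adjustment, called 303 of 11594 genes different between knockout and control muscle at an adjusted p under 0.05 (2.61%). Of these, 273 were higher in knockout muscle (2.35%) and 30 lower (0.259%). At least a 2-fold difference was seen in 111 of the higher and 3 of the lower genes. The spread of each gene was shared by all groups, so cold libraries outside this contrast also enter its p-values. Where a gene varies more at room temperature than after cold, this can make its SE and p too small here. The mean of the 50 genes low in KO10 had an SD of 0.649 in control and 0.997 in knockout muscle at room temperature. After cold these SDs were 0.136 and 0.198. How many of all genes differ in spread this way was not taken. The median log2 fold change over all tested genes was 0.003. The count depended on which libraries entered: the same test on the 16 room-temperature libraries alone called 0 of 11066 genes (lowest adjusted p 0.0911), while 1685 had an unadjusted p under 0.05. DESeq2 on all 32 libraries called 577. Without KO8, KO10 and controls 2 and 3, 708 of 11886 genes were called (5.96%), 274 of them among the 303. Without KO8 and KO10 alone 1541 were called, and without controls 2 and 3 alone 3, with 1250 at an unadjusted p under 0.05.

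**Figure D1:**
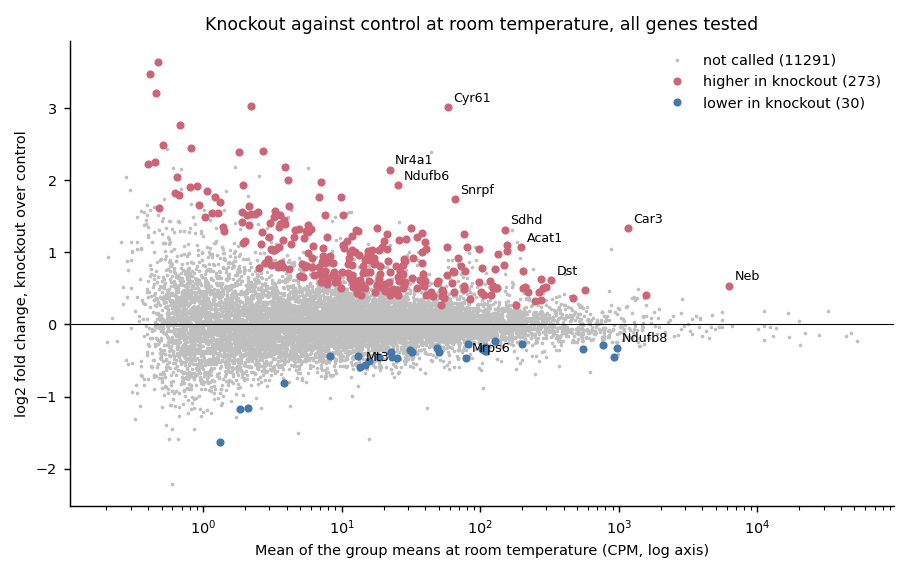
Each point is 1 of 11594 genes, by its mean level at room temperature (CPM, log axis) and its log2 fold change of knockout over control. The 273 higher genes (red) outnumber the 30 lower ones (blue), and most called genes lie among those of low or moderate level.

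Leaving out 1 library at a time moved the count by over 1.5 times for 11 libraries. It was 104 without control 2, 80 without control 3, 159 without control 5, 180 without control 6, 777 without KO8, 159 without KO9, 792 without KO10, 161 without KO13, 197 without KO15, 120 without KO16 and 164 without KO17. By the rule for named genes 57 called genes were taken, not all of them printed here; 19 passed the test in all 16 such fits and 38 did not in at least 1. Without KO8, KO10 and controls 2 and 3 together, 6 of the 57 lost the call: Neb, Nedd4, Nqo1, Exosc4, Sfxn3 and Pla2g2a. All 57 lost it in the fit of the 16 room-temperature libraries alone, 55 without controls 2 and 3 alone, and 48 at an adjusted p of 0.01. With the mean of the 50 genes low in KO10 as a covariate 56 lost it, and without KO8 and KO10 alone 1 did. None of the 57 changed direction in any setting run, but the settings share most libraries and some fold changes shrank strongly. Over the settings, the log2 fold change of the higher named genes fell lowest in F3 (0.0018), Manba (0.0045) and Hibadh (0.049). It fell as low as 0.12 for Fabp4, 0.13 for Car3, 0.14 for Fh, 0.15 for Bnip3, 0.16 for Klf15 and 0.18 for Nr4a1.

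The higher genes were high in 7 of the 9 knockout libraries. In KO9, KO11, KO13, KO14, KO15, KO16 and KO17, between 209 and 267 of the 273 genes lay above every control library. In KO8 64 did, and in KO10 28. In 168 of the 273 genes all 7 of those libraries lay above all controls. The genes were called from these same libraries, so these counts only describe which libraries carry the calls. The matching share over all genes was not taken. KO8 was below the control mean in 132 of the 273 and KO10 in 182. All 9 knockout libraries lay above all 7 controls in 7 of the 11594 genes (0.0604%), 5 of them called, and below all controls in 5 (0.0431%), 2 of them called.

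**Figure D2:**
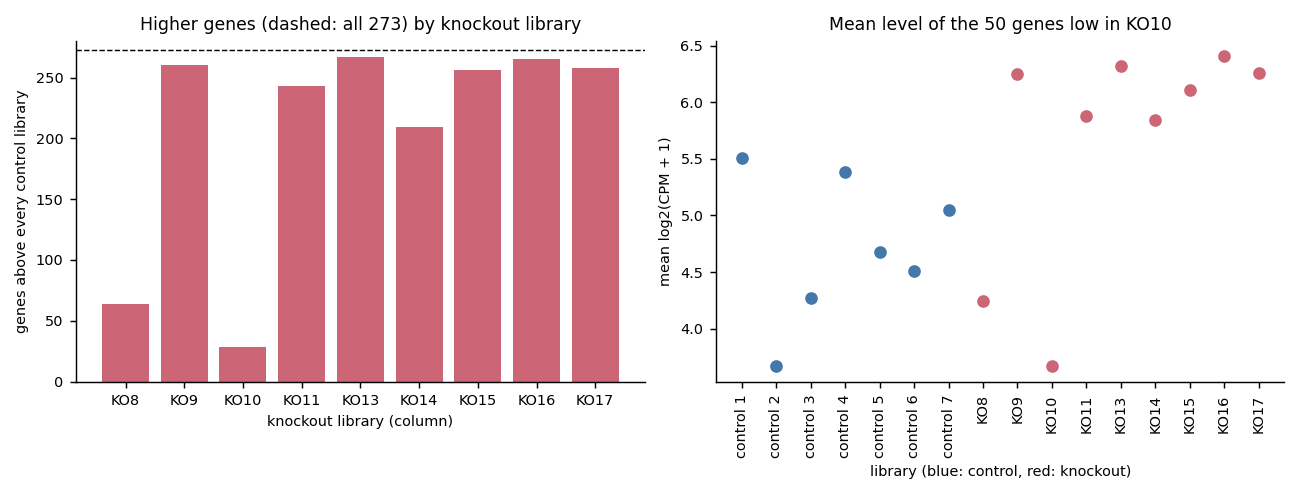
Left, the number of the 273 higher genes that exceed every control library, for each knockout library; right, the mean log2(CPM + 1) of the 50 genes low in KO10, in each room-temperature library. KO8 (64 genes, mean 4.24) and KO10 (28 genes, mean 3.67) differ in both panels from the other 7 knockout libraries. The genes of both panels were chosen from these same libraries.

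Cyr61 and Nr4a1 had the largest fold changes among called genes of at least 5 CPM, and their RefSeq promoter windows are shown for that reason; Acadm is shown as the fat-oxidation enzyme of smallest p. Windows run from 250 bases before to 50 after the gene start (GRCr8), 5′ to 3′ on the gene's strand. Capitals mark 1 motif each, or its reverse complement: GGAATG, bound by TEAD factors, in Cyr61; TGACG, the core of the cAMP response element, in Nr4a1; TGACGTCA, the full element, in Acadm.
Cyr61 (named Ccn1 in RefSeq), chr2:237225640-237225939, minus strand: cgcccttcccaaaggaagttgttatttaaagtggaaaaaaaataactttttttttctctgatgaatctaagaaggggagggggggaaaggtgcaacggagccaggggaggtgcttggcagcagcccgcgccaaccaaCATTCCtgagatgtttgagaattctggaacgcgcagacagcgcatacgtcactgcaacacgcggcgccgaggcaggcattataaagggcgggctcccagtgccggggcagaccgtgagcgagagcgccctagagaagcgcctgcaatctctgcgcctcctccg
Nr4a1, chr7:134259888-134260187, plus strand: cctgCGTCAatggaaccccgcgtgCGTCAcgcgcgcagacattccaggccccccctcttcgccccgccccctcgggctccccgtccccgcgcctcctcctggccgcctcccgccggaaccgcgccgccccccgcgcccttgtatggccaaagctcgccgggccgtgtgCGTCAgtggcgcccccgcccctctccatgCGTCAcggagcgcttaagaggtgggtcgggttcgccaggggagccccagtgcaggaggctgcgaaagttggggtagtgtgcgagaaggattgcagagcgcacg
Acadm, chr2:245542815-245543114, minus strand: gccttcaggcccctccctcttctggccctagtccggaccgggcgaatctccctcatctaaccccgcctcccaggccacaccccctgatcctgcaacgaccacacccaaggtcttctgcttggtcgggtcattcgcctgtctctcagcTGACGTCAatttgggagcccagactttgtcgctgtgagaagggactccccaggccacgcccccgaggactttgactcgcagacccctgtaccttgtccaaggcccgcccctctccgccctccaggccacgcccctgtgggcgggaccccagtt
Nr4a1 held TGACG 4 times, with first bases 246, 226, 82 and 53 bases before the start, and GGAATG once. Cyr61 held each of these motifs once. In Acadm the full element lay 103 bases before the start and contains TGACG on both strands. The 6 motifs named here were searched on both strands in the 54 of 70 named genes that matched a window, after the results were known. TGACG was found in 16 of the 54 windows (21.2% of all 33469 windows hold it), TGACGTCA in 4 (1.83%), GGAATG in 6 (14.2%), the estrogen-related receptor motif AAGGTCA in 3 (4.61%), the NRF1 core TGCGCA in 8 (7.24%) and the E-box CACGTG in 3 (6.42%). The named genes include lower and uncalled ones, and a match is only a description of these letters.

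Among the genes tied to injury, stretch and activity, Cyr61, a matrix-associated target of YAP and TEAD, had the largest fold change. Its level in controls 1 to 7 was 30.4, 1.34, 4.12, 17.2, 12.3, 15.9 and 7.91 CPM. In KO8, KO9, KO10, KO11, KO13, KO14, KO15, KO16 and KO17 it was 8.32, 261, 1.86, 77.8, 117, 43.4, 158, 162 and 103 CPM. The 7 other knockout libraries were all above the controls, while KO8 and KO10 lay within their range. The group means were 12.7 ± 9.76 CPM (SD, n = 7) and 104 ± 82.9 CPM (n = 9), a log2 fold change of 3.01 ± 0.65 (SE; edgeR adjusted p = 0.013). After cold the means were 87.8 CPM in control and 170 CPM in knockout muscle.

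Nr4a1, an orphan nuclear receptor induced by contraction and adrenergic signals, followed the same split. It was at 4.68 to 16.3 CPM in controls, with a median of 7.78, and at 18.98 to 65.6 CPM in the 7 knockout libraries. KO8 stood at 4.30 and KO10 at 1.73 CPM, both under the lowest control. The log2 fold change was 2.15 ± 0.47 (edgeR adjusted p = 0.0145). It was the only called gene of 24 tested in the immediate-early list, against 2.61% of all genes called, and the list median was 0.16. Without KO8, KO10 and controls 2 and 3, 3 were called, all higher, against 5.96% of all genes called. The list median was then 0.31. Of 14 tested genes in the YAP, TEAD and tissue injury list 3 were higher and none lower, where 2.35% of all genes were higher, and the list median was 0.45. Without the 4 libraries 4 were higher, against 5.96% of all genes called in either direction. Beside Cyr61 these were F3, tissue factor (log2 2.18 ± 0.49), and Tead3, a DNA-binding partner of YAP (log2 0.80 ± 0.21). F3 was at 1.40 ± 0.779 CPM in control and 6.36 ± 4.98 in knockout muscle, so it rests on few counts.

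**Figure D3:**
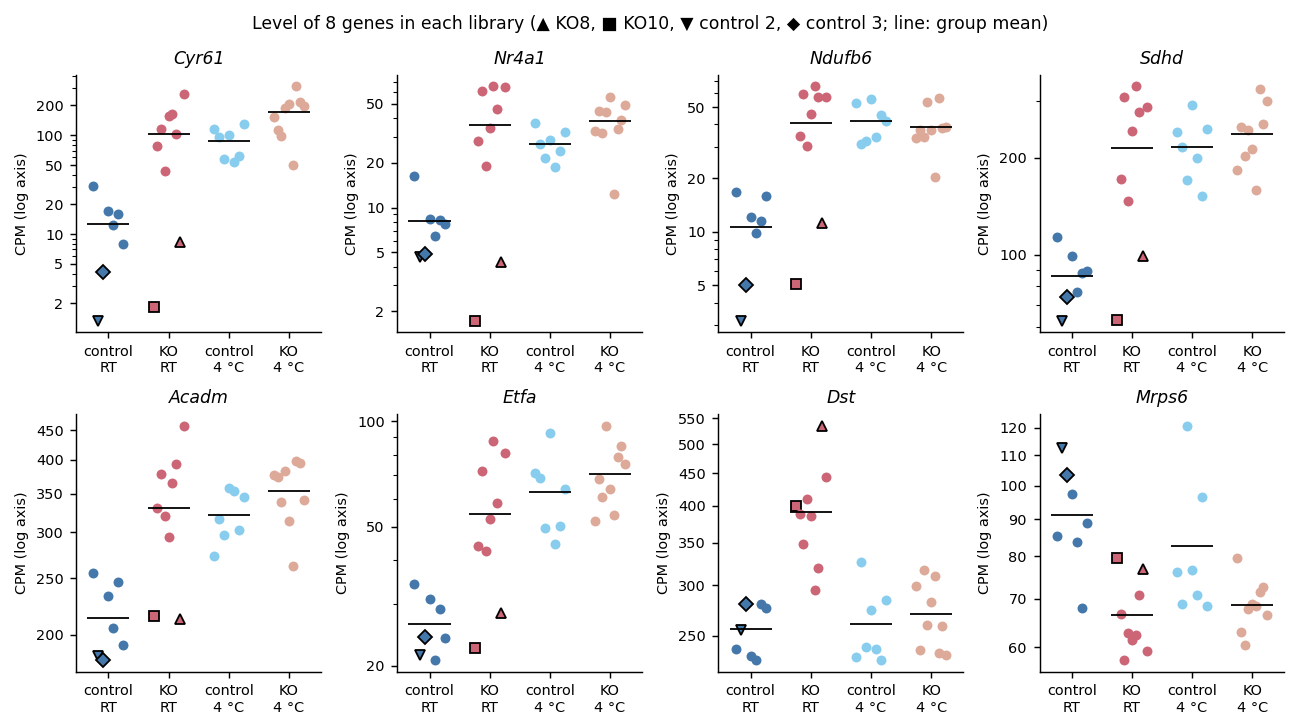
Level (CPM, log axis) of 8 genes in every library of the 4 groups, with the group mean as a line; KO8, KO10 and controls 2 and 3 have their own symbols. In the 6 genes other than Dst and Mrps6, KO8 and KO10 lie within or below the control range and the other knockout libraries above it, while in Dst all 9 knockout libraries exceed the controls; the genes were picked after their values were seen.

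Enzymes that feed electrons from fuel to the respiratory chain were among the higher genes. Of 27 tested genes of fatty acid uptake and oxidation 4 were higher and none lower, against 2.61% of all genes called, but the list median was only 0.07. The counts without the 4 libraries were 7 higher and none lower, with a median of 0.02, where 5.96% of all genes were called. Acadm, the medium-chain acyl-CoA dehydrogenase, stood at 256, 184, 181, 234, 206, 246 and 192 CPM in controls 1 to 7. In the knockout libraries, in the order given for Cyr61, it was 213, 458, 216, 331, 379, 320, 295, 365 and 393 CPM. KO8 and KO10 were again inside the control range and the other 7 above it. The log2 fold change was 0.62 ± 0.12 (edgeR adjusted p = 0.00936). Etfa, a subunit of the flavoprotein that takes electrons from the acyl-CoA dehydrogenases, went from 26.4 ± 5.08 to 54.4 ± 22.7 CPM (log2 1.04 ± 0.22). Etfdh, which passes those electrons on to ubiquinone, had a log2 fold change of 0.89 ± 0.20. The fourth was Eci2, an enoyl-CoA isomerase (log2 0.59 ± 0.16).

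Of 22 tested genes of branched-chain amino acid and ketone metabolism 4 were higher and none lower, where 2.35% of all genes were higher, and the list median was 0.25. With the 4 libraries left out 6 were higher and none lower, with a median of 0.24, where 5.96% of all genes were called. Acat1, the mitochondrial acetoacetyl-CoA thiolase used in ketone and isoleucine breakdown, was at 80.5 to 169 CPM in controls and 147 to 347 CPM in knockout libraries. KO8 (154 CPM) and KO10 (147 CPM) were inside the control range and the lowest of the 9. Its log2 fold change was 1.07 ± 0.19 (edgeR adjusted p = 0.0091). The others were Dbt, a subunit of the branched-chain ketoacid dehydrogenase (log2 0.73 ± 0.15), Hibadh, of valine breakdown (log2 0.92 ± 0.24), and Bcat2, the mitochondrial branched-chain aminotransferase (log2 0.64 ± 0.18).

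In the respiratory chain the called genes went both ways. Of 38 tested nuclear-encoded genes on the list 2 were higher and 1 lower, with a median of -0.04, against 2.61% of all genes called. Without the 4 libraries 3 were higher and 2 lower, where 5.96% of all genes were called. Sdhd, a membrane anchor of succinate dehydrogenase, was at 62.6 to 114 CPM in controls. In knockout muscle it was 99.5 CPM in KO8, 62.8 in KO10 and 147 to 333 in the other libraries (log2 1.31 ± 0.24, edgeR adjusted p = 0.00936). Cox4i1, a subunit of cytochrome c oxidase, lay above all controls in all 9 knockout libraries, at 462 to 712 against 301 to 448 CPM (log2 0.36 ± 0.10). Ndufb8, a subunit of complex I, was lower, at 855 ± 60.2 against 1068 ± 120 CPM (log2 -0.32 ± 0.08), and 7 of 9 knockout libraries lay below the lowest control. Ndufb6, another complex I subunit outside the list, was higher, at 40.6 ± 21.8 against 10.6 ± 5.05 CPM (log2 1.93 ± 0.38). Of 12 tested mitochondrial DNA-encoded genes none was called with all libraries and 1, lower, without the 4. The share of counts from mitochondrial transcripts was 11.03% ± 0.558 in control and 10.98% ± 1.185 in knockout muscle (exact two-sided permutation p = 0.917). In the citric acid cycle list 1 of 25 genes was higher, Fh, fumarase (log2 0.97 ± 0.23), against 2.61% of all genes called. Without the 4 libraries 5 were higher and none lower, against 5.96% of all genes called. In glycolysis 1 of 21 was higher, against 2.61% of all genes called. This was the muscle hexokinase Hk2, at 88.8 ± 16.9 against 63.0 ± 5.87 CPM (log2 0.49 ± 0.10), above all controls in 8 of 9 knockout libraries.

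**Figure D4:**
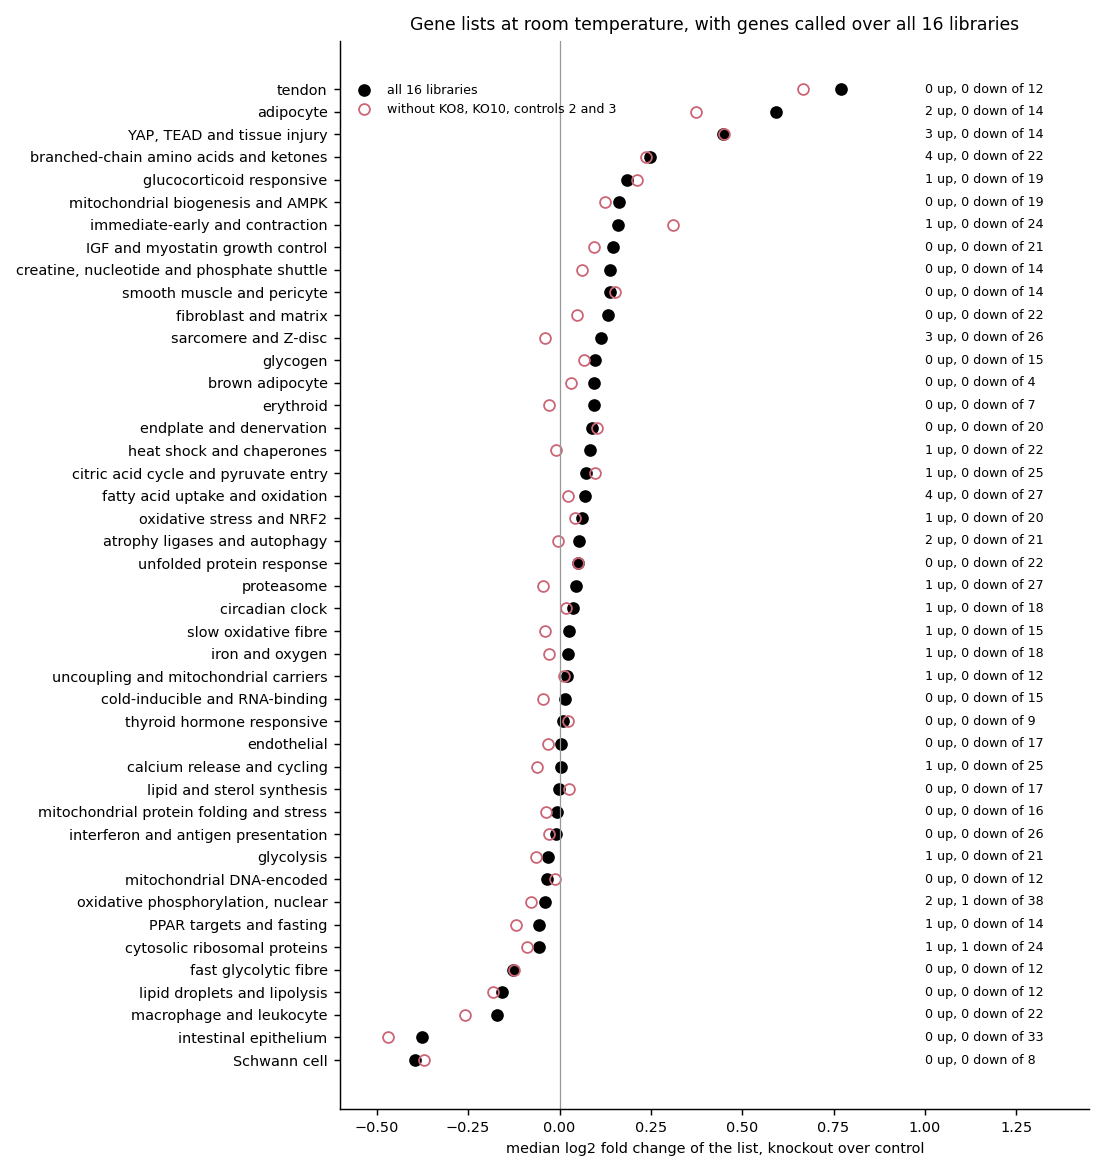
Median log2 fold change of 44 gene lists over all 16 libraries (filled) and without KO8, KO10 and controls 2 and 3 (open), with the number of genes called higher and lower of those tested. With all libraries at most 4 genes of any list were called; the median of the sarcomere list is 0.11 with all libraries and -0.04 without those 4.

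Structural genes of the fibre gave 3 higher and none lower of 26 tested sarcomere and Z-disc genes, where 2.61% of all genes were called, with a median of 0.11. Without the 4 libraries 2 were higher and 2 lower, against 5.96% of all genes called, and the median was -0.04. Neb was at 5073 ± 979 CPM in control and 7369 ± 1695 CPM in knockout muscle (log2 0.54 ± 0.14), Flnc, a Z-disc filamin, had a log2 fold change of 0.48 ± 0.12, and Xirp1, an actin-binding protein of stressed muscle, one of 0.71 ± 0.17. Without the 4 libraries the adjusted p of Neb was 0.0919. Dst, the cytoskeletal linker dystonin, had the smallest p of all genes. It was at 238, 255, 280, 232, 229, 281 and 276 CPM in controls 1 to 7, and in knockout muscle at 535, 445, 399, 388, 349, 410, 386, 295 and 320 CPM in the order above. All 9 knockout libraries exceeded all controls, KO8 being the highest (log2 0.61 ± 0.10, edgeR adjusted p = 0.00478). Dst was also the only gene called once the mean of the 50 genes low in KO10 entered the fit as a covariate (log2 0.74), and after cold its genotype difference was 0.05 ± 0.10. Of the myosins, Myh7, the slow isoform, and Myh1 did not pass the test (log2 0.21 ± 0.18 and 0.19 ± 0.14). Of 12 tested fast-fibre genes none was called, and of 15 slow oxidative genes 1, Fhl2, at 0.245 ± 0.153 against 1.04 ± 0.688 CPM.

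The genes looked up from the calcium route to heat, which do not include Atp2a1, did not pass the test with all libraries. Sarcolipin (Sln), which uncouples SERCA, was at 2.86 ± 0.942 CPM in control (n = 7) and 3.73 ± 2.12 CPM in knockout muscle (n = 9), with a log2 fold change of 0.40 ± 0.41 (edgeR adjusted p = 0.68). For phospholamban (Pln) it was 0.26 ± 0.16, for Atp2a2, the slow-muscle SERCA pump, 0.23 ± 0.16, and for Ryr1, the calcium release channel, 0.49 ± 0.18 (adjusted p = 0.153). KO8 alone reached 3688 CPM of Ryr1, against 1058 to 1779 in the other knockout libraries. Over the 29 alternative settings the log2 fold change of Ryr1 ran from 0.18 to 0.98, and its result was stronger in 2 of them. Of 25 tested calcium genes 1 was called, where 2.61% of all genes were called: Orai1, the store-operated calcium channel (log2 0.50 ± 0.13). Uncoupling protein genes Ucp2 and Ucp3 had log2 fold changes of -0.00 ± 0.25 and -0.24 ± 0.28, Ppargc1a, a coactivator of mitochondrial genes, one of 0.26 ± 0.21, and Pdk4, the fasting-induced brake on pyruvate oxidation, one of -0.64 ± 0.28 (adjusted p = 0.229). Settings changed the sign of 3 of these uncalled genes. Sln ran from -0.75 to 0.66 and Ppargc1a from -0.07 to 0.31, both negative with the covariate of genes low in KO10 fitted without that library, and Ucp2 ran from -0.21 to 0.08. The SEs of Sln, Ucp2 and Ucp3 leave room for moderate differences in either direction. Ryr1 and Pdk4 had unadjusted edgeR p-values of 0.013 and 0.0281.

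Among regulators and protein turnover genes, 1 gene each was higher in several lists and none lower, with all libraries. Over all genes 2.35% were higher, so single calls do not set these lists apart. These were Klf15, a glucocorticoid-induced factor of amino acid use (log2 0.81 ± 0.21), Clock (0.41 ± 0.12), Hsf1, the heat shock factor (0.87 ± 0.19), Vldlr, a lipoprotein receptor of the PPAR list (0.67 ± 0.15), and the proteasome deubiquitinase Psmd14 (0.40 ± 0.10). The proteasome list had 2 higher and 2 lower genes without the 4 libraries, and the heat shock list 3 higher, where 5.96% of all genes were called. Nqo1, an NRF2 target, was at 17.2 ± 3.24 against 23.6 ± 2.40 CPM (log2 0.46 ± 0.11) and was the only one of the 273 genes also called after cold (0.61 ± 0.11). The ubiquitin ligase Nedd4 (0.34 ± 0.09), above all controls in 9 of 9 knockout libraries, and the mitophagy receptor Bnip3 (1.17 ± 0.30) were the 2 higher genes of 21 in the atrophy and autophagy list. Over all genes 2.35% were higher. The thyroid hormone, unfolded protein, interferon, lipid synthesis, lipid droplet, glycogen, creatine, and mitochondrial biogenesis lists had none called in either direction with all libraries. Without the 4 libraries, the glycogen and creatine lists again had none, lipid droplets had 1 lower, and each of the others had 1 higher.

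The 30 lower genes differed by less. Mrps6, a mitochondrial ribosomal protein, had the smallest p among them: 85.2, 113, 103, 97.3, 83.7, 67.9 and 88.8 CPM in controls 1 to 7, and 57.7 to 79.5 CPM in knockout muscle, with KO10 and KO8 the highest. Of the 9 knockout libraries 6 lay below the lowest control (log2 -0.46 ± 0.11, edgeR adjusted p = 0.0162). Ssr4, a subunit of the translocon-associated complex, was below all controls in all 9 libraries, at 83.7 to 107 against 111 to 132 CPM (log2 -0.31 ± 0.08). Exosc4, of the RNA exosome (log2 -0.33 ± 0.08), and Surf6, of ribosome assembly (-0.44 ± 0.11), were lower too. Mt3, a metallothionein, had the largest fold of the named lower genes (-0.59 ± 0.16). Of 24 tested cytosolic ribosomal protein genes 1 was lower, Rpl11 (-0.28 ± 0.08), and 1 higher, Rpl32 (0.56 ± 0.16), against 2.61% of all genes called. Without the 4 libraries 2 were lower and 2 higher, against 5.96%. Copies of ribosomal protein genes make single counts, Rps18l1 included, uncertain.

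Of 5 measures taken per library, 1 passed its test, the share of adipocyte markers. Adipocyte markers took 0.0844% ± 0.0265 of counts in control and 0.191% ± 0.0774 in knockout muscle (exact two-sided permutation p = 0.00524, adjusted over 5 measures 0.0262). Car3, carbonic anhydrase 3, which muscle fibres also make, accounts for most of this, at 659 ± 257 against 1661 ± 808 CPM (log2 1.33 ± 0.32). It is also one of the 50 genes chosen for being low in KO10. The marker share of KO8 (0.101%) and KO10 (0.0527%) lay within the control range of 0.0482% to 0.114%. In the other knockout libraries it lay above that range. The other 13 markers summed to 205 to 245 CPM in controls and 182 to 705 CPM in knockout muscle, so the ranges overlapped. Fabp4, the fatty acid carrier (log2 0.59 ± 0.14), was the other called marker of 14, where 2.61% of all genes were called. Adipoq, adiponectin, was at 7.09 and 11.98 CPM and Plin1, perilipin, at 1.66 and 3.99 CPM, without passing the test. The part of fat tissue in the higher metabolic genes was not tested, and more adipocytes cannot be told apart from more RNA per cell in these bulk samples. The list median was 0.77 for 12 tendon markers and -0.38 for 33 intestinal ones, with none called in either. Without the 4 libraries the medians were 0.67 and -0.47, and 1 intestinal marker was higher, where 5.96% of all genes were called. The share of the 10 most abundant genes was 29.4% ± 1.42 and 27.8% ± 1.15 (exact permutation p = 0.0259, adjusted 0.0647).

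After cold the higher genes had a median genotype difference near 0. The median log2 fold change was 0.86 at room temperature, which the choice of genes fixes, and 0.04 between knockout and control after cold, where 165 of 273 had the same sign and 1 was called. For the lower genes the medians were -0.38 and -0.04, with 18 of 30 of the same sign and none called. Acadm was at 321 CPM in control and 353 CPM in knockout muscle after cold, against 214 and 330 CPM at room temperature. For Sdhd the cold means were 216 and 236 CPM, against 86.2 and 214 CPM, and for Car3 2358 and 2268 CPM, against 659 and 1661 CPM. In these 3 genes the mean of control muscle at room temperature was the low one of the 4.

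**Figure D5:**
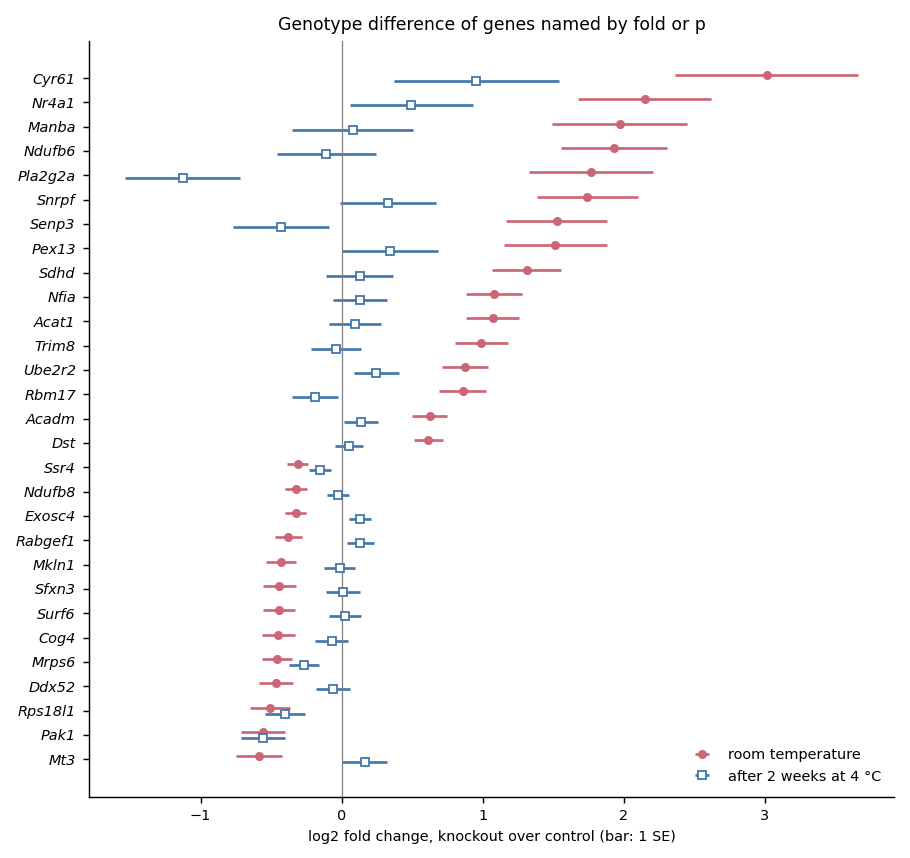
Log2 fold change of knockout over control with its SE for 29 genes named by fold or p, at room temperature (filled) and after 2 weeks at 4 °C (open). The room-temperature values chose the genes; after cold none of the 29 passed the test.

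edgeR called 6 of 11594 genes between the genotypes after cold (0.0518%). For the difference between the 2 genotype effects, the interaction, it called 3 (0.0259%), with 1499 at an unadjusted p under 0.05 and 112 called by DESeq2. LOC100360316 and Asah2, a neutral ceramidase, had a more positive genotype difference at room temperature than after cold, with interaction log2 values of 1.34 and 1.28 (edgeR adjusted p = 0.044 and 0.048). Klhl38, a muscle kelch protein, had the opposite sign, -0.82 (adjusted p = 0.048), with a genotype difference of -0.20 ± 0.11 at room temperature and 0.62 ± 0.12 after cold. For Cyr61 the interaction was 2.06 (adjusted p = 0.279) and for Acadm 0.49 (0.20), so their genotype differences were not shown to differ between the temperatures.

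The genes next to Ucp1 were looked up as well. Of its 20 protein-coding neighbours on each side (gene order of GRCr8) 21 were tested and 2 called, where 2.61% of all genes were called: Adgrl1, a latrophilin (log2 1.04 ± 0.22), and Abce1, of ribosome recycling (0.44 ± 0.10). Il15, a cytokine of muscle, had a log2 fold change of 1.67 ± 0.53 at 0.380 and 1.25 CPM (adjusted p = 0.0767).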

How the data were processed

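Muscle RNA of 7 control and 9 knockout rats at room temperature, and of the same numbers after cold, was sequenced as 3′ tag libraries with 50-base forward reads, per the labels. The authors deposited raw counts per Ensembl gene, and a normalised signal that equals the deposited count over 1 size factor per library (0.523 to 2.06). The submitters' processing notes name R 3.4.3, DESeq2 1.18.1 and Rnor_6.0; which aligner and counter were used is not given in the sources used here. No count was odd; totals are as deposited, and counts over 2 were an alternative. Symbols came with the deposited table for 11693 of 12901 genes.

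Counts were fitted with edgeR 4.0.16 in R 4.3.3 (filterByExpr with a minimum count of 10, TMM factors, 1 mean per group, robust quasi-likelihood F test, adjusted p under 0.05); 1307 genes were not tested. SE is the absolute log2 fold change over the square root of F. Tested on simulated data (11386 genes), it recovered 73% of log2 changes of 1 and 93% of 2, with 7 false calls of 173. The simulation gave every group the same spread and set no library apart, unlike KO8 and KO10. Its rate of false calls therefore does not carry over to this contrast. Library measures used exact permutation tests over 11440 splits. Gene p-values rest on the spread between samples, estimated once per gene over the room-temperature and cold groups together. The labels do not trace the samples to separate litters.

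Named genes were, in each direction, the 8 of largest fold and the 8 of smallest p among called genes of at least 5 CPM, the 3 of smallest p from each of 44 lists, and a fixed set looked up; others were chosen after their values were seen. 1 gene that the rule takes is not reported here. Members and lists were chosen with earlier results of these data known. Alternatives were DESeq2 1.42.0, a fit of the 16 libraries alone, a surrogate variable from sva 3.50.0, RLE scaling, TMM scaling that skips the top 20 genes, all genes unfiltered, an adjusted p of 0.01, counts over 2, and libraries left out; the covariate of genes low in KO10 was added after seeing the data.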

Additional observations from a re-analysis of the deposited data

Results flagged for a closer look

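In several genes or measures 1 library lay far from the rest of its group; chance gives about 1 such group in 20. KO8 was low in Rps18l1 (7.74 CPM) and high in Cog4 (31.3 CPM), Ryr1 (3690 CPM) and Myh1 (55300 CPM). KO15 was low in Nqo1 (18.7 CPM). Control 5 was high in Flnc (641 CPM) and low in Nedd4 (202 CPM), control 7 was low in Cox4i1 (301 CPM), and control 1 had the highest share of erythroid transcripts (0.0956%).

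In 3 genes the genotype difference at room temperature differed from that after cold by edgeR's interaction test: LOC100360316 by a log2 value of 1.34, Asah2 by 1.28 and Klhl38 by -0.822.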

How the results depend on the processing

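No paired analysis was possible because the knockout columns could not be tied to single samples: the labels number these samples in 2 ways, and the columns themselves, 1 to 7 in controls and 8 to 17 in knockout, share no number. Called genes (all, higher, lower) were 577, 472 and 105 with DESeq2, 1541, 1009 and 532 without KO8 and KO10, 708, 588 and 120 without these and controls 2 and 3, and 21, 21 and 0 at an adjusted p of 0.01. They were 3, 3 and 0 without controls 2 and 3, and 0, 0 and 0 with edgeR on the 16 libraries alone (1685 at an unadjusted p under 0.05). With the genes low in KO10 as a covariate they were 1, 1 and 0; without KO10 that fit gave 310, 229 and 81, 22 of them among the 303. Lower genes were 54 with 1 surrogate variable and 54 with counts over 2. With 1 library left out, the counts ran from 80 to 792, higher genes from 78 to 625 and lower genes from 2 to 179. The cause of these changes was not tested. DESeq2 called 436 genes after cold and 112 in the interaction, which had 288 without the 4 libraries. The share of the 10 most abundant genes differed by -1.62 points (unadjusted exact permutation p = 0.0259, adjusted 0.0647). The unadjusted p was above 0.05 without controls 2 and 3 (-1.05 points), control 2 (-1.26) or control 6 (-1.41); with 1 library left out the difference ran from -1.91 to -1.26. The difference in intestinal share (-0.0574) had an unadjusted p under 0.05 only without control 6 (-0.0738) or KO10 (-0.0677), among the settings run, and ran from -0.0738 to -0.0294 with 1 left out. No called named gene changed sign, though the log2 fold change of F3 fell as low as 0.0018. The uncalled Sln, Ppargc1a and Ucp2 did change sign. Without the 4 libraries 11 of 44 list medians changed sign. The medians of creatine (0.06) and proteasome genes (-0.05) moved by more than the SD between knockout libraries; others moved less than that SD, such as immediate-early (0.16 to 0.31) and adipocyte genes (0.59 to 0.37). Genes of a few CPM, F3 and Fhl2 among them, are limited by depth.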
